A study of Mus musculus with 16 samples.

Results

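The 90 genes described here are the mouse genes for the proteins of the cytosolic ribosome, taken as every gene in the tables named Rpsa or carrying an Rpl, Rps or Rplp symbol with a number, out of 56748 genes. Genes with a "-ps" pseudogene name were not taken. They were followed in splenic memory CD4+ T cells lacking HP1α or HP1γ and in WT littermates, with 16 samples in all. Of the 90 genes, 36 carry a small-subunit name, 51 a large-subunit name and 3 (Rplp0, Rplp1 and Rplp2) encode the stalk of the large subunit. In the current GENCODE annotation of GRCm39, 5 of the 90 (Rpl6l, Rpl32l, Rps3a2, Rps3a3 and Rps12l1) are processed pseudogenes despite their symbols.

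Cells were sorted as CD4+CD25low/-CD62L-CD44high from the spleen, with 4 samples each of HP1α KO, HP1α WT, HP1γ KO and HP1γ WT. In the HP1α line, the floxed Hp1a (Cbx5) allele had been excised with CMV-cre, which acts in the whole body, and -/- mice were compared with their +/+ littermates. In the HP1γ line, WT and KO mice were both homozygous for the floxed Hp1g (Cbx3) allele and the KO also carried Cd4-cre, so the effect of Cre and that of losing HP1γ cannot be told apart there, and the deletion concerns T cells. Littermates were sex-matched young adults of a mixed 129/Sv and C57BL/6 background, and nothing in the labels ties a sample to an individual animal. The p-values below therefore measure the spread between these samples.

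The cytosolic ribosome has a small subunit, which decodes the mRNA, and a large subunit, which forms the peptide bond. Each is built from ribosomal RNA and a fixed set of proteins, nearly all present in 1 copy per ribosome, and the acidic stalk proteins recruit the elongation factors. Ribosomal protein mRNAs are among the most abundant of any cell, and T cells adjust their translation when they become activated or leave the cell cycle. HP1 proteins bind histone H3 methylated at lysine 9 and help to keep heterochromatin silent.

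Many ribosomal protein mRNAs begin with a run of pyrimidines (C or T) at the cap, the terminal oligopyrimidine tract, through which mTOR and LARP1 regulate their translation. RefSeq start sequences (table built on GRCm38.p6) were at hand for 65 of the 90 genes. A run of 8 or more pyrimidines lay between 15 bases before and 35 bases after an annotated start in 38 of the 65 (58.5%), against 20.3% of 26960 other genes. The sequences below show it for genes that return in the results, with the longest run in capitals, placed on GRCm39 by exact match of the RefSeq sequence.
Rpl37a, chr1:72750432-72750461, + strand: gcgcattgcgTCCCTTCCTCTTcggacttg
Rps26, chr10:128462353-128462382, - strand: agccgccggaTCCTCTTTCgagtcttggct
Rps18, chr17:34174622-34174651, - strand: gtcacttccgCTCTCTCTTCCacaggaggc
Rps27, chr3:90120938-90120967, - strand: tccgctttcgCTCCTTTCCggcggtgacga
Rpl13a, chr7:44778148-44778177, - strand: tgcgacaagaCCTCCTCCTTTCCCaggcgg
Rpl41, chr10:128385021-128385050, - strand: cacgggccggCTCggaagtgacgacaccga
The first 5 stretches carry runs of 9 to 14 pyrimidines. Relative to the annotated start, the runs begin at position 4 in Rps26, -2 in Rps18 and Rps27 and 3 in Rpl13a. In Rpl37a the run begins at position 24, which is not at the annotated start. The annotated start of Rpl41 showed no run longer than 3.

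The 300 bases of each entry, 250 before the start and 50 after it, were also searched for CTTCCG on either strand, a core that ETS factors such as GABP recognise. It was found in 43 of 65 ribosomal protein genes (66.2%) and in 18.7% of the other genes. In Rpl37a and Rps18 it lay close to the start, as shown in capitals.
Rpl37a, chr1:72750391-72750420, + strand: gaggtcgcgtcaCTTCCGctcgccggtcta
Rps18, chr17:34174630-34174659, - strand: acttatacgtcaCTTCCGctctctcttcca
The TATA sequence TATAAA, searched on the sense strand before the start, was found in 3 of the 65 (4.62%) and in 8.95% of the other genes. These matches describe sequence letters and not binding.

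Library sizes lay between 26694045 and 40199637 estimated counts. Trac and Cd4, which mark CD4 T cells, were at 705 CPM or more in every sample, while Cd8a, Cd8b1 and Ms4a1 stayed at 11.1 CPM or less. Foxp3, which marks regulatory T cells, was between 57.6 and 164 CPM. Cbx3 was between 45.9 and 50.3 CPM in HP1γ KO and between 73.4 and 92.5 CPM in HP1γ WT (edgeR, log2 fold change -0.82 ± 0.08 SE, adjusted p = 0.0015). Cbx5 was between 23.0 and 29.0 CPM in HP1α KO and between 33.8 and 54.0 CPM in HP1α WT, which did not overlap but did not pass the test (log2 fold change -0.58 ± 0.15, adjusted p = 0.95, edgeR). Low Cbx5 was not particular to HP1α KO, since it was between 20.1 and 29.8 CPM in HP1γ KO and between 27.1 and 37.4 CPM in HP1γ WT (-0.29 ± 0.15, adjusted p = 0.46, edgeR). These CPM values are of RNA and do not measure protein. The paper reports, from western blots of naive CD4+ T cells, no HP1α protein in HP1α KO and almost no HP1γ protein in HP1γ KO.

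The level of each gene was read as TPM, which is per length and allows genes to be compared within a sample. A median of 1000 TPM or more over the 16 samples was reached by 77 genes, 31 of the small subunit, 43 of the large subunit and the 3 stalk genes. Their middle value was 2209 TPM, the quartiles were 1794 and 2966 TPM, and the highest was 9.59 times the lowest, against a median of 10.8 TPM over all genes tested. Of the 100 genes with the highest median TPM in these cells, 60 were ribosomal protein genes. The limit of 1000 TPM was chosen after the levels were seen, at a gap between Rpl39 (1028 TPM) and Rpl36al (616 TPM).

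Rps27, a small-subunit protein, had the highest level (median 9856 TPM, from 8994 to 11692 over 16 samples). It was followed by Rpl13a (7652 TPM), Rplp1 (6638 TPM) and, among the first 5, Rps29 (5602 TPM). The ranges of neighbouring genes in this order overlapped, for instance Rpl13a from 6224 to 9162 TPM and Rplp1 from 5613 to 8097 TPM. Salmon divides reads among like sequences, and in the current annotation 59 of the 77 genes share at least 25% of their 31-base words with transcripts of other genes, mostly pseudogenes. Levels are therefore uncertain where copies are near-identical, as for Rps27, of which 63.9% of the words occur in the related gene Rps27rt.

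**Figure D1:**
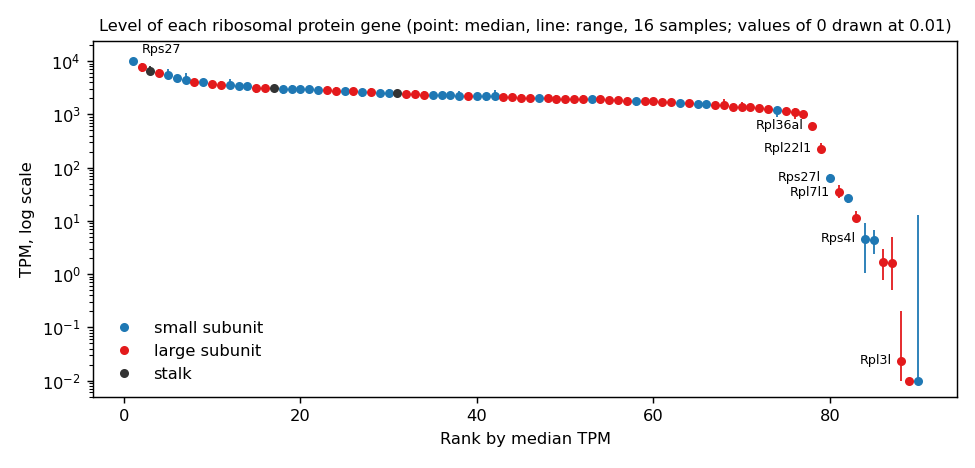
TPM of each ribosomal protein gene on a log scale (y axis) against its rank (x axis), with points at the median of 16 samples and lines from the lowest to the highest sample. The 77 genes at 1000 TPM or more form a plateau, below which the paralogs and pseudogene-like copies drop from Rpl36al (616 TPM) to Rpl3l, and values of 0, as the medians of Rpl10l and Rps12l1, are drawn at 0.01.

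The 13 genes below that limit were paralogs of core ribosomal proteins or retroposed copies. Rpl36al stood at 46.6% of the TPM of its parent Rpl36a (median of 16 samples) and Rpl22l1, the paralog of Rpl22 known from T cell development, at 19.0% of Rpl22. Rpl7l1 was at 2.01% of Rpl7, Rps27l, a p53 target, at 0.655% of Rps27, Rps4l at 0.220% of Rps4x and Rpl39l, best known from male germ cells, at 0.176% of Rpl39. Rpl3l, the striated-muscle paralog of Rpl3, had from 0 to 5 counts in a sample and Rpl10l, a testis paralog of Rpl10, was listed at 0 in all 16. Rps12l1, whose annotated sequence lies wholly within Rps12, was listed at 0 in 14 samples and held 64.1 estimated counts in HP1α WT replicate 1 and 36.3 in HP1γ KO replicate 1.

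The genes were next added up per library. In HP1γ KO they held 6.16%, 5.67%, 5.87% and 6.01% of the estimated counts, against 7.19%, 6.99%, 6.28% and 6.57% in HP1γ WT. All 4 KO samples lay below the 4 WT samples, by 0.83 percentage points on average or 12.3% of the WT share. In HP1α KO the shares were 7.33%, 7.48%, 8.23% and 7.31%, and in HP1α WT 7.46%, 6.65%, 7.33% and 7.31%. These groups overlapped, with a mean that was 0.401 points higher in the KO and 0.186 points higher without KO replicate 3, the sample with the largest share of the 16. That sample also held the highest sums of the myeloid markers (109 CPM, against 35.1, 35.1 and 61.9 in the other HP1α KO samples) and of the B cell markers (19.3 CPM), and their part in the share was not tested. The WT groups overlapped as well, at 7.19% ± 0.364 in the HP1α line and 6.76% ± 0.409 in the HP1γ line (mean ± SD, n = 4). No test was run on a sum over chosen genes.

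Per length the same order held. Ribosomal protein genes took 18.3% ± 0.536 of TPM in HP1γ KO, 20.1% ± 0.796 in HP1γ WT, 22.1% ± 0.851 in HP1α KO and 21.1% ± 0.895 in HP1α WT (SD, n = 4), and the HP1γ groups again did not overlap. The "-ps" pseudogenes added between 0.0495% and 0.0868% of counts and left the HP1γ difference at 0.836 points when included. The ratio of small-subunit to large-subunit TPM, stalk included in the latter, stayed between 0.819 and 0.842 in every sample, and the groups overlapped in all 3 comparisons.

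**Figure D2:**
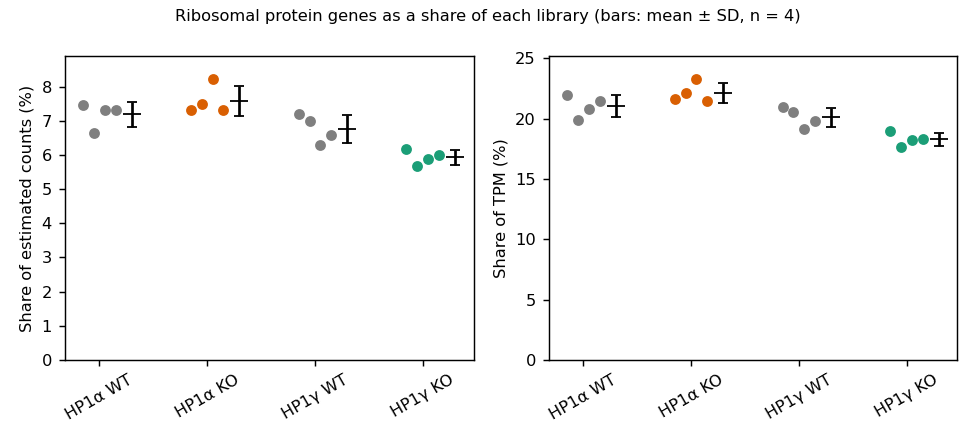
Share of each library held by the 90 ribosomal protein genes, in percent of estimated counts (left) and of TPM (right), with 1 point per sample and the mean ± SD of 4 samples beside it. The HP1γ KO samples sit between 5.67% and 6.16% of counts, under the 6.28% to 7.19% of their WT littermates, whereas the HP1α groups overlap.

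The 77 abundant genes moved together from sample to sample. After the group means were removed from log2 CPM, all 2926 gene pairs had a positive Pearson r over the 16 samples, with a median of 0.88 and quartiles of 0.82 and 0.93. These are descriptions, since all genes were read in the same libraries, and the cause of the shared movement was not tested. A single component held 85.9% of this within-group variance. The SD within groups was 0.10 on the log2 scale for the middle gene and 0.04 once the mean of the 77 genes in each sample had been taken off. The 79 mitochondrial ribosomal protein genes tested, which form the ribosome inside mitochondria, had a median r of 0.08 and a first component of 25.6% on the same scale, and 30 translation factors a median r of 0.56.

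Per sample, the median deviation of the 77 genes from their 16-sample mean ran from -0.28 (log2 CPM) in HP1γ KO replicate 2 to 0.28 in HP1α KO replicate 3. The HP1γ KO samples were at -0.12, -0.28, -0.19 and -0.21, and the HP1γ WT samples at 0.14, 0.07, -0.15 and -0.04. On this scale WT replicate 3 lay below KO replicate 1, so the HP1γ groups overlapped in 1 sample each. The HP1α KO samples were at 0.09, 0.09, 0.28 and 0.06 and the HP1α WT samples at 0.10, -0.06, 0.11 and 0.11. HP1α KO replicate 3 and HP1α WT replicate 2 thus stood apart from their groups in opposite directions. Across samples of a group, Rpl41 (mean r of 0.72 with the other 76), Rpl10a (0.73) and Rplp1 (0.76) followed the others least closely, and Rps3 (0.91) most closely.

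**Figure D3:**
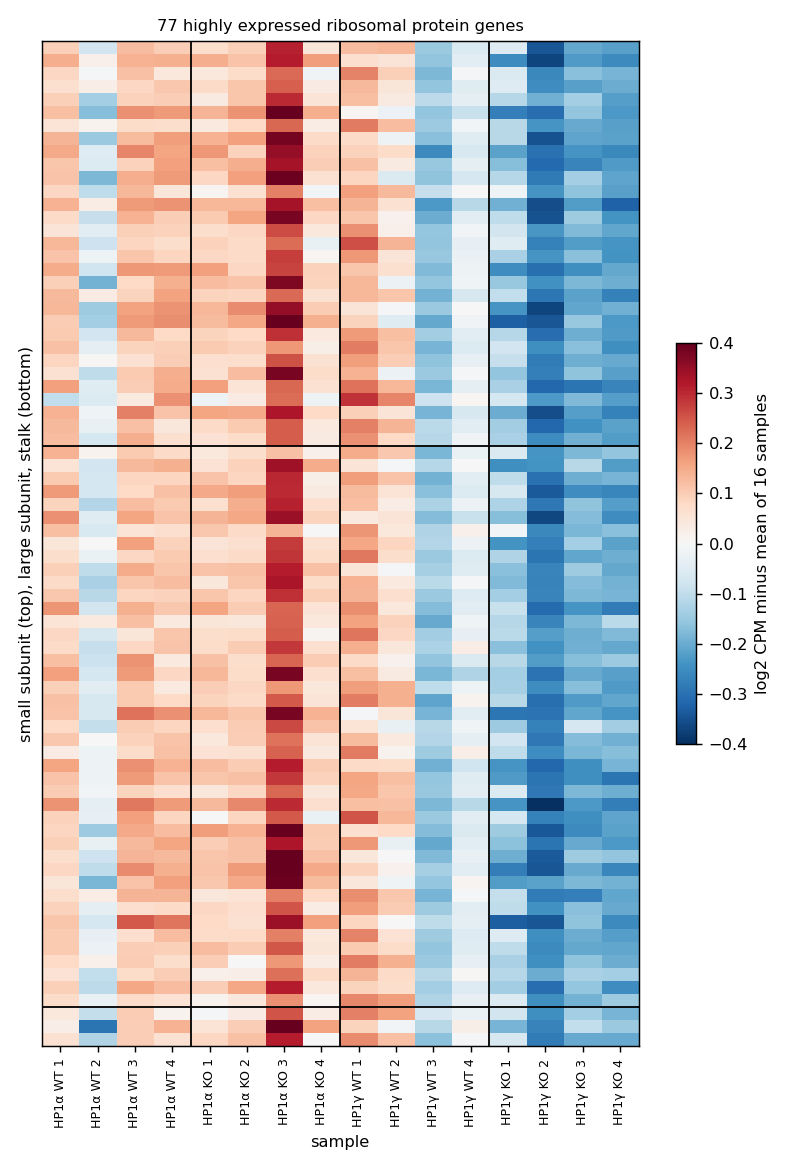
Deviation of log2 CPM from the mean of 16 samples (colour, from -0.4 to 0.4) for 77 ribosomal protein genes (rows, by subunit) in each sample (columns, by group). Most genes of a column share a direction, with the deepest red in HP1α KO replicate 3 and the deepest blue in HP1γ KO replicate 2. The 4 HP1γ KO columns and HP1γ WT replicate 3 are blue throughout, HP1γ WT replicate 4 and HP1α WT replicate 2 are pale blue for most genes, and HP1γ WT replicate 2 holds both colours.

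To ask whether loss of HP1γ altered single ribosomal protein genes, each gene was compared between HP1γ KO and HP1γ WT with the edgeR quasi-likelihood test over 14975 genes. None of the 86 ribosomal protein genes tested passed an adjusted p of 0.05, where 0.0735% of all genes tested were called lower and 0.254% higher. At an unadjusted p under 0.05, 71 of the 86 were lower and 0 higher, against 5.57% and 6.34% of all genes. The abundant genes moved together from sample to sample (median r of 0.88). Counts of ribosomal protein genes, here and below, are therefore not counts of independent results. The log2 fold change was below 0 in 83 of the 86 (49.9% of all genes) and above 0 in 3 (50.1%), with a median of -0.20 and quartiles of -0.23 and -0.17, against a median of 0.00 over all genes. Among the 77 abundant genes every value was negative, between -0.28 and -0.12, which for the middle gene was 13.2% less normalised count. DESeq2 called 4 genes lower (among them Rpl41, Rpl37a and Rpl32, adjusted p from 0.0312 to 0.0439), and limma on log2(TPM + 1) called 0 with 41 lower at an unadjusted p under 0.05. The smallest adjusted p with edgeR was 0.20.

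The gene with the smallest p was Rpl41, which encodes a very short basic peptide of the large subunit. It stood at 552, 547, 621 and 582 CPM in HP1γ KO and at 736, 693, 647 and 676 CPM in HP1γ WT. The groups did not overlap, and the log2 fold change was -0.25 ± 0.06 (SE, adjusted p = 0.20, edgeR). For Rpl37a, a zinc-binding protein of the large subunit, the values were 562, 537, 593 and 568 CPM in the KO and 725, 689, 621 and 661 CPM in the WT. The groups did not overlap, at a log2 fold change of -0.25 ± 0.06 (adjusted p = 0.20). Rpl32, also of the large subunit, had 608, 581, 600 and 580 CPM in the KO and 792, 772, 639 and 688 CPM in the WT, a difference of -0.28 ± 0.07 (adjusted p = 0.21).

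In the small subunit, Rps26, which lies at the mRNA exit of the small subunit and is encoded on chromosome 10 as is Rpl41, had 443, 427, 445 and 457 CPM in the KO and 570, 551, 467 and 520 CPM in the WT (-0.24 ± 0.07, adjusted p = 0.25, edgeR). Groups did not overlap on the low side in 24 of the 86 genes, against 3.89% of all genes tested, and on the high side in 0 (3.21%). For Rpl41, Rpl37a, Rpl32 and Rps26 the exact permutation test gave p = 0.0286, the smallest that 4 against 4 allows. Groups that do not overlap give this value by construction, and these genes were named for their small p here. It therefore adds nothing to the edgeR result.

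By role, the small subunit, the large subunit and the stalk gave like values. The median log2 fold change was -0.21 over 31 abundant small-subunit genes, -0.20 over 43 large-subunit genes and -0.22 over the 3 stalk genes. Rpsa, a small-subunit protein also known as the laminin receptor, had 2170 ± 78.1 CPM in HP1γ KO and 2557 ± 226 CPM in HP1γ WT (SD, n = 4), a log2 fold change of -0.23 ± 0.07. Rps6, the classical substrate of S6 kinase downstream of mTOR, had 1165, 1024, 1041 and 1061 CPM in the KO and 1482, 1396, 1121 and 1239 CPM in the WT. Its WT replicate 3 lay below KO replicate 1, and the log2 fold change was -0.28 ± 0.09 (adjusted p = 0.31). Rplp0, Rplp1 and Rplp2 had log2 fold changes of -0.22, -0.16 and -0.22.

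Rps19, the gene most often mutated in Diamond-Blackfan anaemia, had a log2 fold change of -0.13 ± 0.07 (adjusted p = 0.49, edgeR). Rpl5 and Rpl11, which bind MDM2 with 5S ribosomal RNA when ribosome assembly fails, were at -0.19 ± 0.08 and -0.20 ± 0.08 (adjusted p = 0.40 and 0.38). All 19 genes listed for Diamond-Blackfan anaemia were below 0, with a median of -0.21, and 0 of them were called. All 77 abundant genes were below 0 as well, with a median of -0.20, so these 19 did not stand apart. Rpl13a, a component of the interferon-γ-activated inhibitor of translation complex, was at -0.19 ± 0.07, and Rps3, which also acts in DNA repair, at -0.23 ± 0.08. Rps27a, whose product is made as a fusion to ubiquitin, was at -0.21 ± 0.08. Fau, whose product is likewise made as a fusion to a ubiquitin-like protein and which lies outside the naming rule, was at -0.18 ± 0.05 (adjusted p = 0.24).

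The paralogs whose values exceeded their SE (Rpl36al, Rps27l and Rpl22l1) were below 0, as were their parents. Rpl36al and Rps27l had log2 fold changes of -0.17 ± 0.07 and -0.18 ± 0.12, close to their parents Rpl36a (-0.19) and Rps27 (-0.17). Rpl22 and Rpl22l1 were at -0.17 ± 0.08 and -0.18 ± 0.09. Rpl7l1 was at -0.09 ± 0.13 where Rpl7 was at -0.22 ± 0.08, and Rps4l at 0.07 ± 0.25 where Rps4x was at -0.21 ± 0.08. The genes above 0 were Rpl39l, Rps4l and Rpl6l, at values within their SE of 0, and Rps3a2 and Rps3a3 were within their SE of 0. Differences between paralog and parent were not tested.

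Genes at other steps of protein synthesis were compared with lists chosen for the purpose. Over all genes tested in HP1γ KO, 49.9% were below 0 and 5.57% were lower at an unadjusted p under 0.05 (edgeR). Of all genes, 0.0735% were called lower and 0.254% higher. Of 30 translation factors, 0 were called in HP1γ KO, 27 were below 0 and the median was -0.13. At an unadjusted p under 0.05, 8 were lower, among them Eef1g (-0.22 ± 0.06, adjusted p = 0.22, edgeR), Eef1a1 (-0.21 ± 0.07), Eef1b2 (-0.24 ± 0.09) and Eef2 (-0.14 ± 0.06), the elongation factors, and Rack1 (-0.19 ± 0.06), a small-subunit scaffold. Eef1b2, Rack1 and the other factors of this list were chosen after their values were seen. Eif5, an initiation factor, was above 0 (0.25 ± 0.11, adjusted p = 0.40, edgeR). Of 46 ribosome biogenesis genes, 0 were called, 21 were below 0 and the median was 0.01. Among 19 growth regulators tested, 0 were called and the median was -0.02, with Myc, mTOR subunits and S6 kinases in the list, and Eif4ebp1, an inhibitor of cap-dependent initiation, was at -0.40 ± 0.14 (adjusted p = 0.34, edgeR, also named after its value was seen). Of 79 mitochondrial ribosomal protein genes, 0 were called, 69 were below 0 and the median was -0.12.

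Other values were set beside the HP1γ difference. Tested genes outside the set with a length, read as counts per TPM, among the shortest 10% (n = 1296) had a median log2 fold change of -0.09 and 62.3% were below 0, whereas the 678 that were as abundant as the lowest of the 77 genes had a median of -0.01. Globin genes (Hbb-bs, Hbb-bt, Hba-a1 and Hba-a2), the erythroid markers, summed to 988, 1180, 80.9 and 820 CPM in HP1γ KO. The sums in HP1γ WT were 45.1, 465, 519 and 68.0 CPM, and the groups overlapped. In the same sample order, the ribosomal protein shares of counts were 6.16%, 5.67%, 5.87% and 6.01% in HP1γ KO. In HP1γ WT they were 7.19%, 6.99%, 6.28% and 6.57%. Leaving out KO replicate 2 or WT replicate 1 left 29 genes lower at an unadjusted p under 0.05 in either case, in place of 71, with medians of -0.18 and -0.15. The part of gene length and of erythroid RNA in the difference was not tested. In bulk samples, fewer cells of a type and less RNA per cell cannot be told apart.

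**Figure D4:**
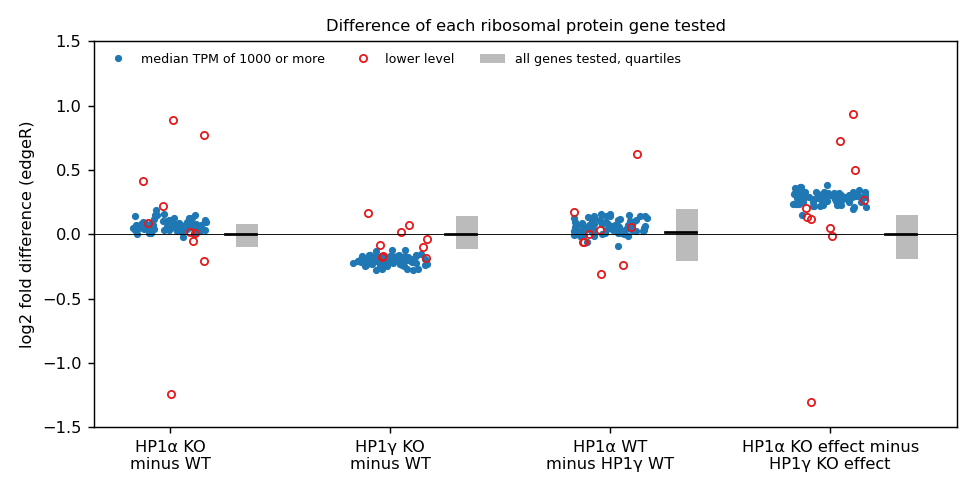
Log2 fold difference (y axis, edgeR) of each ribosomal protein gene tested in the 3 comparisons between groups and in the difference between the KO effects (x axis), as blue points for genes at 1000 TPM or more and open red points for the others. Grey bars span the quartiles of all genes tested with a black line at the median, and in HP1γ KO the blue points lie between -0.28 and -0.12.

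In HP1α KO against HP1α WT, 0 of 87 ribosomal protein genes tested were called with edgeR, as were 0% of all 14881 genes in either direction. DESeq2 and limma on TPM also called 0 ribosomal protein genes. The log2 fold change was above 0 in 83 of the 87 (50.9% of all genes) and below 0 in 4 (49.1%), with a median of 0.06 against 0.00 for all genes. At an unadjusted p under 0.05, 0 were higher (1.67% of all genes) and 2 were lower (2.59%), both of them paralogs. The median of the 77 abundant genes was 0.06, equal to 4.43% more normalised count, with a typical SE of 0.07 for a single gene. Without KO replicate 3 the median over all ribosomal protein genes was 0.01, and without WT replicate 2 it was 0.03. The shortest tested genes outside the set, chosen as in the HP1γ comparison (n = 1370), had a median of 0.05. The 678 as abundant as the lowest of the 77 genes had a median of 0.03. The part of gene length in the HP1α difference was not tested.

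The paralogs with the smallest p were Rps4l and Rpl22l1. Rps4l, a paralog of the X-linked Rps4x that lies on chromosome 6, had 0.55, 1.46, 1.18 and 1.44 CPM in HP1α KO and 2.53, 1.69, 5.00 and 1.77 CPM in HP1α WT, from 22 to 136 counts per sample. The groups did not overlap (log2 fold change -1.24 ± 0.41, adjusted p = 0.95, edgeR). Rpl22l1 had 52.3, 53.3, 56.2 and 54.6 CPM in the KO and 57.8, 74.96, 58.6 and 57.8 CPM in the WT. These groups did not overlap either, with a log2 fold change of -0.21 ± 0.09 (adjusted p = 0.95), and WT replicate 2 was the highest of the 16 samples. Without that sample the log2 fold change of Rpl22l1 was -0.10, and without WT replicate 3 that of Rps4l was -0.79. They were the 2 genes of the set whose groups did not overlap on the low side, as for 1.43% of all genes tested, and 0 did so on the high side (1.53%).

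As a share of Rpl22 TPM, Rpl22l1 was 16.7%, 15.8%, 15.5% and 16.3% in HP1α KO and 17.7%, 22.8%, 16.8% and 18.4% in HP1α WT. In HP1γ KO it was 20.4%, 19.6%, 21.0% and 17.5% and in HP1γ WT 21.1%, 19.9%, 20.7% and 20.0%. All HP1α KO samples had a lower ratio than any other sample. The nearest was HP1α WT replicate 3, at 16.8% against 16.7% in HP1α KO replicate 1. The HP1γ groups overlapped. As a share of Rps4x TPM, Rps4l was 0.0462%, 0.143%, 0.0608% and 0.0935% in HP1α KO, likewise below the other 12 samples, of which the lowest was at 0.152% and the highest at 0.435%. Both paralogs were named for their small p between the HP1α groups, so their lower ratios than in HP1α WT are no further support. Rpl22 itself, an RNA-binding protein needed for αβ T cell development, differed by 0.03 ± 0.06 (log2, HP1α) and -0.17 ± 0.08 (HP1γ).

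The next genes by p in the HP1α comparison were 2 retroposed copies and a stalk gene. Rps3a3 had 2.37 ± 0.454 CPM in the KO and 1.78 ± 0.224 CPM in the WT, Rpl32l 0.365 ± 0.119 and 0.215 ± 0.103 CPM (SD, n = 4), and all 31-base words of Rpl32l are shared with other genes. Rplp1 had 1514, 1561, 1953 and 1629 CPM in HP1α KO and 1484, 1191, 1562 and 1605 CPM in HP1α WT, which overlapped (0.19 ± 0.10, adjusted p = 0.95, edgeR). Of the abundant genes, Rpl10 was the one below 0 (-0.02 ± 0.05). Mitochondrially encoded genes, which use the mitochondrial ribosome, took 1.69%, 1.69%, 1.98% and 1.62% of counts in HP1α KO and 1.74%, 2.54%, 2.57% and 1.96% in HP1α WT.

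**Figure D5:**
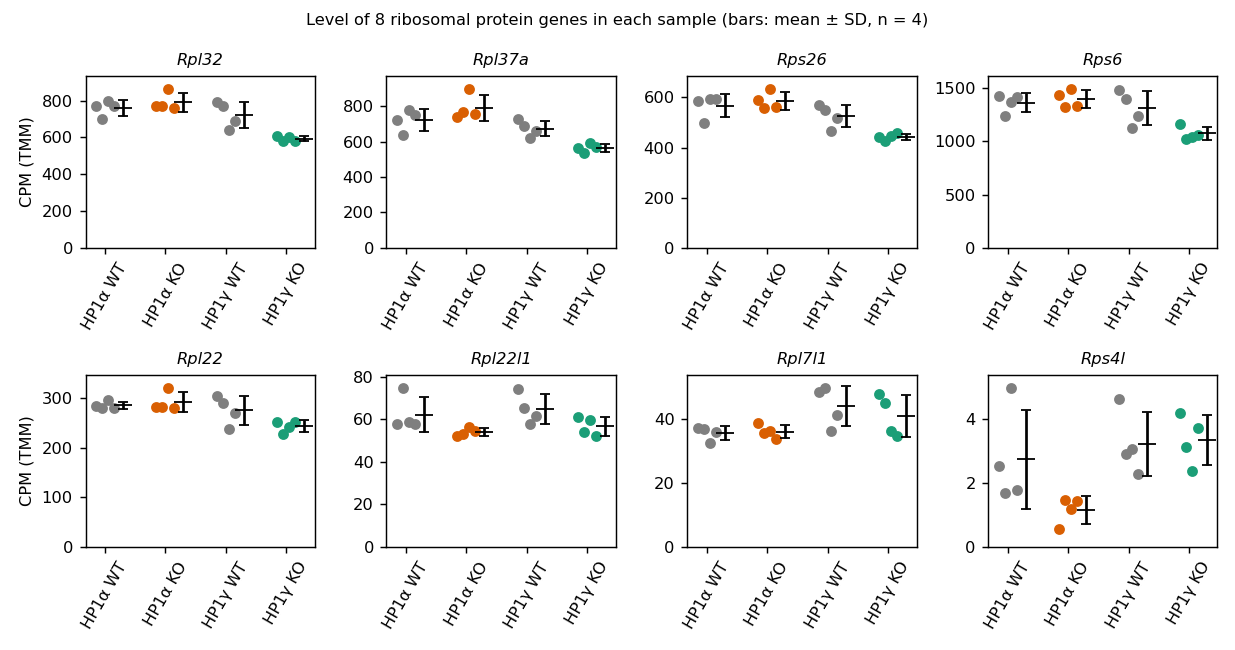
CPM after TMM normalization (y axis, from 0) of 8 ribosomal protein genes in each of 16 samples (points, by group on the x axis), with mean ± SD of 4 samples. Rpl32, Rpl37a and Rps26 show HP1γ KO samples under all HP1γ WT samples, Rps4l and Rpl22l1 show HP1α KO samples under all HP1α WT samples, and Rpl7l1 is spread from 34.6 to 49.8 CPM in the HP1γ line.

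The difference between the KO effects was then tested as an interaction in all 16 samples. None of 87 ribosomal protein genes passed an adjusted p of 0.05 with edgeR, where 0.00634% of 15776 genes were called higher and 0.0444% lower in the HP1α effect than in the HP1γ effect. DESeq2 and limma on TPM called 0 as well. At an unadjusted p under 0.05, 75 of the 87 had the higher effect in the HP1α line (4.67% of all genes) and 1, Rps4l, the lower (4.91%). The median difference was 0.28 (log2) against 0.00 for all genes, with 2 genes of the set below 0 (49.4%), and it stayed between 0.23 and 0.33 when each sample was left out in turn. The shortest tested genes outside the set, chosen as in the HP1γ comparison (n = 1525), had a median of 0.13. The 678 as abundant as the lowest abundant ribosomal protein gene had a median of 0.05. The part of gene length in the interaction was not tested.

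Among the smallest p values were those of Rpl37a (0.39 ± 0.11, adjusted p = 0.31, edgeR), Rpl32 (0.34 ± 0.10, adjusted p = 0.31), Rps18 (0.33 ± 0.10, adjusted p = 0.34) and Rpl23a (0.31 ± 0.09, adjusted p = 0.35). For Rps18, whose start is shown above, the values were 789, 716, 739 and 758 CPM in HP1γ KO and 962, 910, 798 and 864 CPM in HP1γ WT, and 965, 982, 1118 and 949 CPM in HP1α KO against 958, 855, 946 and 995 CPM in HP1α WT. The interaction of Rpl22l1 was -0.01 ± 0.13 and that of Rps4l -1.30 ± 0.51 (adjusted p = 0.45, edgeR). The interaction and the KO comparisons share all their samples, so their values are not independent.

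Lastly, the WT groups were compared to see whether the lines differed before any deletion. Here 4.55% of 14804 genes were called higher and 8.25% lower in the HP1α line, but 0 of 86 ribosomal protein genes with edgeR or with limma on TPM. The median log2 difference, HP1α WT minus HP1γ WT, was 0.05 against 0.02 for all genes, and 75 of 86 were above 0 (52.1% of all genes). At an unadjusted p under 0.05, 0 were higher (13.8%) and 1 was lower (16.1%). No ribosomal protein gene had groups that did not overlap, whereas 8.81% of all genes did so on the high side and 10.7% on the low side. The shortest tested genes outside the set, chosen as in the HP1γ KO comparison (n = 1305), had a median of 0.05, as the ribosomal protein genes did. The 678 as abundant as the lowest abundant ribosomal protein gene had a median of -0.03. The part of gene length in the difference between the WT groups was not tested. Line, floxed allele and any batch of the lines cannot be told apart in this comparison.

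The gene with an unadjusted p under 0.05 was Rpl7l1, a paralog of Rpl7 with a role in ribosome assembly. It had 37.0, 36.9, 32.4 and 36.0 CPM in HP1α WT and 48.3, 49.8, 36.3 and 41.4 CPM in HP1γ WT. The groups overlapped, since HP1γ WT replicate 3 fell within the HP1α range, and the log2 difference was -0.31 ± 0.10 (adjusted p = 0.069, edgeR). DESeq2 called it (adjusted p = 0.0406). In HP1γ KO it had 47.9, 45.1, 36.1 and 34.6 CPM, so that replicates 1 and 2 of both HP1γ groups were the highest. Rpl28, Rps20 and Rpl13a were among the next, with differences of 0.14 to 0.16 and adjusted p of 0.21 or more.

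Some other genes of protein synthesis were called between the WT groups, where 4.55% of all genes were called higher and 8.25% lower. No test set the lists apart from this background. Mitochondrial ribosomal protein genes were called in 6 of 79, higher in HP1α WT for Mrpl24 (0.35 ± 0.07), Mrpl33, Mrpl34 and Mrpl58 and lower for 2, among them Mrpl46 (-0.47 ± 0.13). Of the growth regulators 4 of 19 were called, Rheb, the GTPase that activates mTOR (-0.62 ± 0.07, adjusted p = 0.0015, edgeR), and the p53 target Cdkn1a (-1.20 ± 0.26, adjusted p = 0.017) lower in HP1α WT, Trp53 and Rps6ka1 higher. Of the 46 biogenesis genes, Riok1, Wdr43 and Bysl, which act in small-subunit assembly, were lower and Bop1, of large-subunit assembly, was higher. The initiation factors Eif5, Eif4e and Eif4g2 were lower, from -0.32 to -0.29. None of the corresponding lists held a called gene in either KO comparison.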

How the data were processed

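RNA-seq of 16 samples of splenic memory CD4+ T cells was used, grouped by the titles given by the submitters. A treatment label that mentions transferred cells does not match the described experiment and was not used. The authors ran the nf-core RNA-seq workflow, with Trim Galore, STAR and Salmon on the GRCm39 assembly. The deposited estimated counts are fractional where Salmon splits reads between genes, as were 93.9% of the values above 0 of ribosomal protein genes. They also deposited TPM, which are scaled to a fixed sum and keep no depth. How the reads of near-identical copies were divided can move the level of single genes.

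Estimated counts were rounded and tested in R 4.3.3 with edgeR 4.0.16 (TMM, filterByExpr, estimateDisp, glmQLFit, glmQLFTest), with Benjamini-Hochberg adjustment over all genes tested. A gene was called at an adjusted p under 0.05. Each comparison used its 8 samples and the interaction all 16. CPM values are after TMM over 16 samples, and log2 CPM carry a prior count of 2. Totals between 26694045 and 40199637 counts leave little counting error for the abundant genes, and the spread between samples sets the precision.

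Low-count filters kept 86 or 87 of the 90 genes. Rpl3l, Rpl10l and Rps12l1 were not tested in any comparison, and Rpl32l was not tested within the HP1γ line or between the WT groups. Single named genes were also compared by a two-sided exact permutation test. Alternatives were DESeq2 1.42.0, limma 3.58.1 on log2(TPM + 1) and log2(TPM + 0.1), RLE or no scaling factors, TMM computed without ribosomal protein genes, no filter, at least 10 counts in every sample, a common fit of 16 samples, a block for the replicate number, pseudogene counts added to the gene they are named for, and each sample left out in turn.

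The scripts were tested on simulated data. The 24 pairs of samples within groups differed by more than sampling noise (chi-square per gene from 9.99 to 54.1). The genes, lists and tests were chosen with earlier results of these data known. Named genes are, per comparison, the 5 with the smallest p where fewer than 5 were called, the 5 highest and lowest by median TPM, the 3 most and least variable, called genes of the lists (at most 5 per list and comparison) and a fixed set of well-known members and paralogs. Some genes that this rule names are not reported here. Other genes are named for background. Sequences are from RefSeq (GRCm38.p6) and positions from GRCm39. Protein sequences were not used here.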

Additional observations from a re-analysis of the deposited data

Results flagged for a closer look

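A single sample lay far from the other 3 of its group, past Dixon's limit for 4 samples, in 17 of 156 cases examined (the named ribosomal protein genes with a median of at least 10 counts and the summed share, in each group). Chance gives about 1 in 20, and genes that move together are met together. All 17 were in the HP1α line.

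In HP1α KO replicate 3, 12 genes were high. Among small-subunit genes these were Rps20 at 752 CPM, against 650 to 656 CPM in the others, Rps27 at 1593 CPM, against 1307 to 1338 CPM in the others and Rps27a at 649 CPM, against 579 to 591 CPM in the others. Further ones were Rps29 at 1188 CPM, against 927 to 945 CPM in the others, Rps4x at 1345 CPM, against 1177 to 1185 CPM in the others and Rpsa at 2946 CPM, against 2554 to 2620 CPM in the others. Among large-subunit and stalk genes they were Rpl22 at 321 CPM, against 281 to 282 CPM in the others, Rpl23a at 1287 CPM, against 1108 to 1135 CPM in the others and Rpl28 at 832 CPM, against 691 to 704 CPM in the others. Further ones were Rpl32 at 865 CPM, against 757 to 771 CPM in the others, Rpl36a at 346 CPM, against 296 to 300 CPM in the others and Rplp0 at 2563 CPM, against 2143 to 2205 CPM in the others.

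In HP1α WT replicate 2, 4 genes were low and the paralog Rpl22l1 was high. The low ones were Rpl11 at 719 CPM, against 801 to 812 CPM in the others, Rpl29 at 648 CPM, against 731 to 742 CPM in the others and Rpl36al at 141 CPM, against 156 to 159 CPM in the others, and also Rps26 at 499 CPM, against 584 to 594 CPM in the others. The high one was Rpl22l1 at 74.96 CPM, against 57.8 to 58.6 CPM in the others.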

How the results depend on the processing

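The direction of the median log2 fold change of the ribosomal protein genes was kept under every alternative in the 4 comparisons. It ranged from 0.01 to 0.09 (HP1α), -0.25 to -0.15 (HP1γ), 0.01 to 0.10 (WT groups) and 0.23 to 0.33 (interaction) when 1 sample was left out. Counts of called genes differed from 0 with DESeq2, at 4 in HP1γ KO and 1 between the WT groups, and at 1 (Rpl7l1) between the WT groups without HP1γ WT replicate 3 (from 0 to 1 over the samples left out, and 0 to 0 in the other comparisons). DESeq2 gave log2 fold changes of -0.25 (Rpl41), -0.25 (Rpl37a), -0.28 (Rpl32) and -0.31 (Rpl7l1, WT groups).

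Of counts at an unadjusted p under 0.05, those in HP1γ KO that were lower fell to 41 and 44 with limma on log2(TPM + 1) and log2(TPM + 0.1), and lay between 29 and 79 with 1 sample left out, with 1 higher and 0 to 0 with no filter and with samples left out. In HP1α KO, 1 was lower with library totals alone and with either limma fit, and 2, 2 and 3 were higher with the block and the limma fits with pseudocounts of 1 and 0.1 (1 to 2 lower and 0 to 1 higher with 1 sample left out). Between the WT groups, 11 were higher with library totals alone, 1 with no filter, 2 with 16 samples in one fit, and 7 and 9 (with 0 lower) in the limma fits. Leaving out samples gave 0 to 18 higher, the 18 without HP1α WT replicate 2, and 1 to 2 lower. For the interaction, no filter gave 2 lower, and leaving out samples gave 56 to 78 higher and 0 to 1 lower. The cause of these shifts was not tested.

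As shares of TPM in place of counts, the differences were 1.05 (HP1α), -1.83 (HP1γ) and 0.950 points (WT groups), on a scale with larger shares. With 1 sample left out, those of counts were 0.186 to 0.494, -0.988 to -0.685 and 0.268 to 0.606 points.

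The replicate numbers could not be taken to pair the samples, since not every pair had a correlation of deviations over 0.1. For numbers 1 to 4 it was 0.108, 0.216, 0.228 and 0.0940 in the HP1α comparison and 0.109, 0.153, 0.00286 and 0.0792 in the HP1γ comparison, above the mean with other numbers in all 8 pairs (a hint from the data, not the design), and negative for every number between the WT groups. With the number as a replicate block, 0 ribosomal protein genes were called in each comparison, 75 were lower at an unadjusted p under 0.05 in HP1γ KO and 77 were higher in the interaction. Depth did not limit the 77 abundant genes, while Rpl3l, Rpl10l and Rps12l1 held too few counts to be compared.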
